A study of Mus musculus with 6 samples.

Results

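Potassium channel genes were taken as every gene in the count table whose symbol starts with Kcn and continues with subfamily letters and a number, Kcnj10 excepted, and whose counts over the 6 retinae came to 10 or more. Of 95 symbols of this form 86 met the minimum, out of 16904 genes tested and 24062 genes in the table. They were 83 protein-coding genes of 20 subfamilies and 3 noncoding RNAs, Kcnq1ot1, Kcnmb4os1 and Kcnd3os. The choice used the name and the summed count, and not the difference between the groups. Of the 9 genes left out, Kcnk7, Kcnk16, Kcnk18 and Kcnmb3 had 0 counts in every library, which allows up to 3 counts in each, and Kcna10, Kcne1, Kcnj1, Kcnj15 and Kcnk15 had between 1 and 9 counts in all.

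The retinae came from mice labelled C57BL/6 (C57BL/6N in the study's methods) at postnatal day 21, and whole-retina mRNA was sequenced from 3 Rb1/p107/Hells knockouts (TKO) and 3 Rb1/p107 knockouts (DKO). Both groups carried Chx10-Cre with floxed Rb1 and were null for p107, the retinoblastoma family member encoded by Rbl1, in every cell. The TKO retinae also lost Hells, which encodes a chromatin remodeler of the SNF2 helicase family, through the same Cre. Chx10-Cre acts in retinal progenitors in a mosaic pattern, so each retina also held cells that did not recombine, and no retina with intact Rb1 was part of this comparison. The labels do not say whether the 3 retinae of a group came from separate animals, so p-values measure the spread between these samples only. The comparison asks how the transcripts of a retina without Rb1 and p107 differ when Hells is removed as well.

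Potassium channels let potassium pass through the membrane and so set the resting potential of a cell and the time course of its response. In rod photoreceptors a voltage-gated current of the inner segment, to whose channels Kcnv2 contributes a modifier subunit, helps to hold the dark potential and shapes the response to dim light, and mutations of human KCNV2 cause a cone dystrophy with altered rod responses. Muller glia take up and redistribute potassium through inward rectifiers, and amacrine, bipolar and ganglion cells use other voltage-gated and calcium-activated channels to shape their signals.

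Each pore-forming subunit carries a short signature that lines the narrowest part of the pore and selects potassium over sodium. It is shown here for 6 pore-forming genes whose transcripts differed between the groups, since the results turn on these channels. The coding strand of GRCm38 is given 5′ to 3′ from the annotated transcripts, and the 15 capitals code for the signature.
Kcnv2, chr19:27333642-27333686, plus strand: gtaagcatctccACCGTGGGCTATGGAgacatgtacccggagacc
Kcnj14, chr7:45819615-45819659, minus strand: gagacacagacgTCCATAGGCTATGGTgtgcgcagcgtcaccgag
Kcnma1, chr14:23528395-23528439, minus strand: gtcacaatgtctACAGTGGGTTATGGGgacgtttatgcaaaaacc
Kcnh6, chr11:106019064-106019108, plus strand: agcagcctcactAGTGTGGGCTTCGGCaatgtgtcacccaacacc
Kcnh4, chr11:100750275-100750319, minus strand: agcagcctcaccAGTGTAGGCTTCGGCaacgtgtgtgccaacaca
Kcnt2, chr1:140425266-140425310, plus strand: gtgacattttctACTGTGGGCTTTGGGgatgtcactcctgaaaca
Over the 45 bases, Kcnh4 and Kcnh6, of the same subfamily, shared 38. Kcnma1 shared 31 with Kcnt2 and nearly as many, 30, with Kcnv2. The inward rectifier Kcnj14 shared between 14 (Kcnh6) and 18 (Kcnma1 and Kcnt2) with the other genes.

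In TKO retinae, transcripts of 7 potassium channel genes were higher and those of 4 were lower than in DKO retinae. Among the higher genes were the modifier subunit Kcnv2, the inward rectifier Kcnj14, the large-conductance calcium-activated channel Kcnma1, the Erg channel Kcnh6 and the auxiliary subunits Kcnab2 and Kcne2. The lower genes were the Elk channel Kcnh4, the sodium-activated channel Kcnt2 and the auxiliary subunits Kcne1l and Kcnmb4. The remaining 75 genes did not pass the test. A gene passed when edgeR's quasi-likelihood test, adjusted over all genes tested, gave it a p of at most 0.05. The 11 genes are 12.8% of the 86, beside 16.6% of all genes tested. By direction, 7 of 86 were higher beside 7.35% of all genes, and 4 of 86 were lower beside 9.2%. With libraries scaled by total counts alone the split was 6 higher and 6 lower. With a log2 fold change of at least 1 in size and a normalized mean of 10 or more counts also required, 4 genes were higher, Kcnv2, Kcnj14 and Kcne2 among them (all genes 1.97%) and Kcnh4, Kcnt2 and Kcne1l were lower (all genes 4.38%). The values of the 3 TKO and 3 DKO retinae did not overlap for 30 of the 86 genes (34.9%), 18 higher and 12 lower, where 38.6% of all genes did not overlap. The median log2 fold change, TKO over DKO, was 0.08 over the 86 genes and -0.01 over all genes, with a range of -3.09 to 2.12. The 86 genes were thus called higher at about the rate of all genes, and lower at a smaller rate. Of the 75 genes that did not pass, 49 had a 95% interval within 2-fold either way. For the others the interval reaches a larger change, so not passing does not show the absence of a difference.

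**Figure D1:**
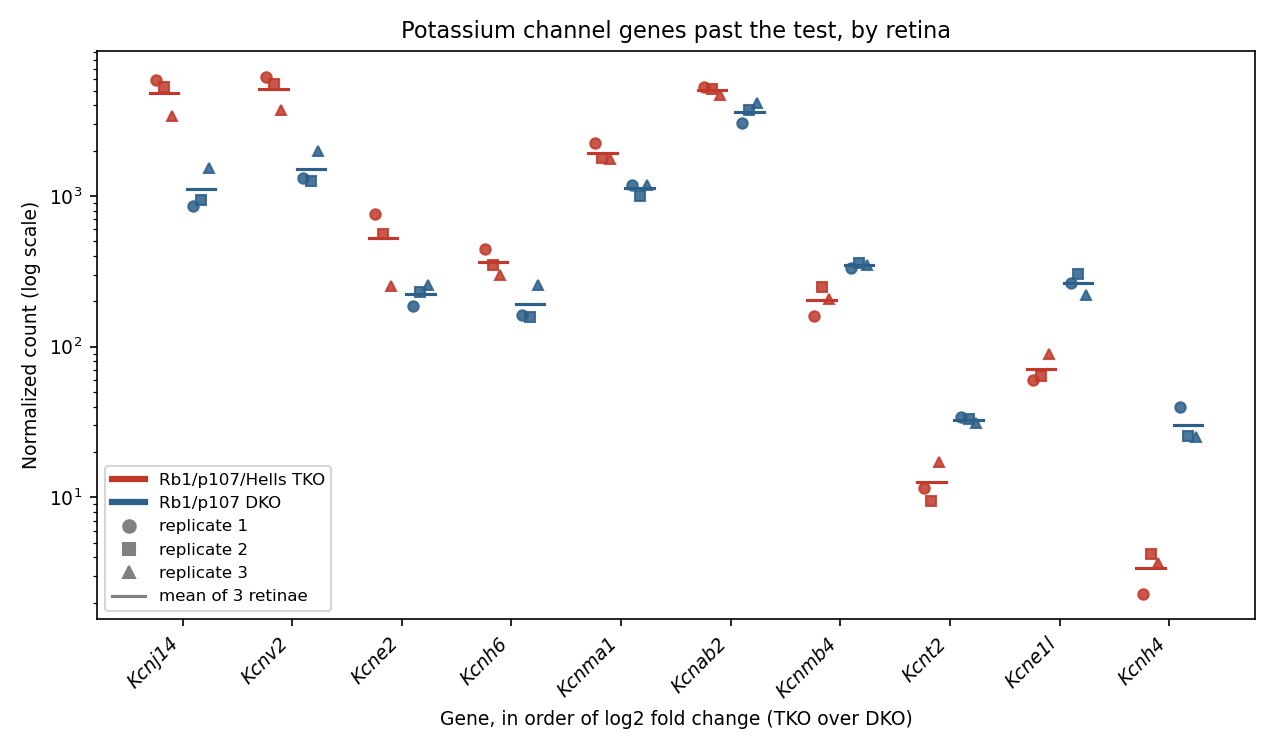
Normalized count of 10 potassium channel genes past the test in each retina, on a log axis, with TKO retinae in red, DKO retinae in blue, a marker shape for each replicate and a line at the mean of 3. The groups do not overlap for 9 genes, and for Kcne2 the third TKO retina, at 252, lies just under the highest DKO retina, at 256.

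The libraries held between 10343907 and 14203098 counts. Hells had 60.8, 68.4 and 83.4 normalized counts in the TKO and 678, 523 and 395 in the DKO retinae, so every library followed its label. Rb1, floxed in both groups, stood at 814, 746 and 682 in TKO against 617, 583 and 572 in DKO retinae. Every TKO value of Rb1 lay above every DKO value, and edgeR called it higher (adjusted p = 0.0388, fitted log2 difference 0.34). Rbl1 stood at 27.5, 20.0 and 13.5 against 15.1, 16.6 and 24.2, with overlapping groups, and did not pass. Whether the share of recombined cells differed between the groups was not tested. Markers of several cell types moved with the genotype. All 8 rod markers tested, among them Gnat1 and Nrl, were higher in TKO retinae, with a summed level of 26200 to 53800 counts scaled to library size (CPM) against 8970 to 17100 in DKO retinae. Of 7 cone markers 2 were higher (472 to 1270 against 329 to 535). All 8 markers of dividing cells were lower (40.9 to 165 against 415 to 902), as were 5 of 7 microglia markers (86.9 to 155 against 201 to 289). Of 9 bipolar markers 2 were higher (1370 to 1840 against 1240 to 1450), of 5 horizontal markers 1 (334 to 405 against 326 to 347) and of 6 endothelial markers 1 (403 to 514 against 425 to 546). The horizontal marker past the test was Sept4 (log2 fold change 0.30), and Calb1 stood at 0.09. Onecut1, Lhx1 and Onecut2 went the other way without passing (-1.24, -0.87 and -0.70), and the median of the horizontal list was -0.70. None of 8 amacrine, 8 ganglion and 6 pericyte markers passed the test. Of 8 Muller glia markers 3 were higher and 2 lower (5820 to 6130 against 5130 to 5660). Of 8 lens markers 3 crystallins were higher (38.3 to 243 against 9.21 to 9.45), with the most in TKO replicate 2 and Lim2 at 0 in TKO replicate 1 and in every DKO library. Of 8 markers of the retinal pigment epithelium, RPE, Rpe65 alone was higher (71.5 to 189 against 34.4 to 94.1). The part of these markers in the channel differences was not tested, and in whole tissue fewer cells of a type and less RNA per cell cannot be told apart. In both groups replicate 3 was the retina nearest to the other group in its summed rod and dividing-cell levels. Without replicate 3 of either group, a choice made after seeing the data, 12 of the potassium channel genes were higher and 9 lower.

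Among the 29 voltage-gated pore-forming genes, those that can open as channels of their own, 2 were higher and 1 was lower. The 95% interval of the fold change lay within 2-fold either way for 22 of them. The Erg channel gene Kcnh6 had 447, 350 and 297 normalized counts in TKO and 162, 158 and 255 in DKO retinae. The groups did not overlap, and replicate 3 of each was the nearest to the other. The log2 fold change was 0.93 (standard error, SE, 0.223, adjusted p = 0.0263 from edgeR), and the adjusted p rose to between 0.0805 and 0.104 when TKO replicate 1 or 2 or DKO replicate 1 or 2 was left out. Kcnh4, an Elk channel gene, was counted 2, 4 and 3 times in TKO retinae and 42, 29 and 29 times in DKO retinae. It was close to absent in every TKO library and low in the DKO libraries, so that the pooled counts gave a level 8.71-fold higher in DKO retinae (95% counting interval 4.41 to 19.6, for counting error only). The fitted log2 fold change was -3.09 (SE 0.418, adjusted p = 0.00691 from edgeR), past the test in all 6 fits with 1 retina left out.

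The other members of the Kcnh subfamily did not pass. Kcnh2, the Erg channel known from cardiac repolarization, was its most abundant gene, with 1260, 1491 and 1451 normalized counts in TKO and 1376, 1569 and 1527 in DKO retinae. The groups overlapped, and the log2 fold change of -0.09 had a 95% interval of -0.30 to 0.12. Kcnh1, the ether-a-go-go channel, differed by -0.13 (-0.43 to 0.17). Kcnh3, which like Kcnh4 is an Elk channel gene, had 2, 1 and 2 counts against 4, 7 and 11. It was lower in every TKO retina, at a level 3.45-fold higher in DKO retinae (95% counting interval 1.28 to 11.7), and it did not pass the test (adjusted p = 0.103 from edgeR).

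None of the 7 Kcna, 4 Kcnc, 3 Kcnd and 5 Kcnq pore genes passed. Kcna2, a delayed rectifier of axons, had the most counts of the Kcna genes, exon length not allowed for. Its normalized counts were 2386, 2534 and 2846 in TKO and 3203, 2571 and 2674 in DKO retinae (log2 fold change -0.12, 95% interval -0.37 to 0.13). Kcnc1 and Kcnc2, fast delayed rectifiers of rapidly firing neurons, differed by 0.09 (-0.09 to 0.27) and 0.14 (-0.08 to 0.36). Kcnd3, which carries the transient A-type current, had 2094, 2023 and 2382 against 2182, 1948 and 1869 (0.12, -0.10 to 0.33). For these 4 genes the groups overlapped and the interval leaves out a change of 1.5-fold or more in either direction.

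The modifier subunits of the Kcnf, Kcng, Kcns and Kcnv subfamilies form no channel on their own and alter the gating of the voltage-gated subunits that they join. Kcnv2 was the only 1 of 10 such genes past the test. It had 6199, 5541 and 3728 normalized counts in TKO retinae and 1306, 1252 and 1995 in DKO retinae. The lowest TKO value was above the highest DKO value, again with replicate 3 of each group nearest to the other. The log2 fold change was 1.76 (SE 0.232, adjusted p = 0.00680 from edgeR), past the test in all 6 fits with 1 retina left out. The other modifiers had fewer normalized counts than Kcnv2 in every retina. Kcng4, the next, had 542, 698 and 576 against 379, 396 and 863, where DKO replicate 3 held the highest value of all 6 retinae. Its log2 fold change was 0.15 (95% interval -0.53 to 0.83), and without DKO replicate 3 it was 0.64 and past the test (adjusted p = 0.0151 from edgeR). Kcnf1 differed by 0.33 (-0.25 to 0.92). Kcns2 differed by -0.34 (-0.75 to 0.06), and without TKO replicate 3 it was at -0.54 and past the test (adjusted p = 0.0376 from edgeR).

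Of 11 auxiliary subunits of voltage-gated channels 2 were higher and 1 was lower. Kcnab2, a cytoplasmic beta subunit that binds Kcna channels and aids their transport, had 5273, 5117 and 4669 normalized counts in TKO and 3057, 3705 and 4120 in DKO retinae. The groups lay apart by a narrow margin, with a log2 fold change of 0.47 (SE 0.120, adjusted p = 0.0337 from edgeR). It was no longer past the test without TKO replicate 1 or 2 or DKO replicate 1 or 2 (adjusted p from edgeR 0.0908 to 0.114), or with libraries scaled by total counts alone (0.0836). The other beta subunits differed little, Kcnab1 by 0.05 (95% interval -0.15 to 0.26) and Kcnab3 by 0.01 (-0.18 to 0.20).

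Within the Kcne subfamily, whose single-span proteins modulate Kcnq and Kcnh channels, the pair with the most counts moved in opposite directions. Kcne2 had 765, 558 and 252 normalized counts in TKO and 187, 230 and 256 in DKO retinae. TKO replicate 3 sat among the DKO values and the other TKO retinae above them, with a log2 fold change of 1.23 (SE 0.344, adjusted p = 0.0444 from edgeR). Kcne2 passed in 1 of 6 fits with 1 retina left out, the fit without TKO replicate 3 (adjusted p = 0.00202 from edgeR). Without TKO replicate 1 or 2 or any 1 of the DKO retinae the adjusted p was 0.0559 to 0.141, and with robust dispersion estimates it was 0.094.

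Kcne1l, also known as Kcne5 and located on chromosome X, had 59.6, 64.2 and 89.6 normalized counts in TKO retinae and 264, 305 and 221 in DKO retinae. All TKO values were below all DKO values, with a log2 fold change of -1.89 (SE 0.201, adjusted p = 0.00473 from edgeR, past the test in all 6 fits with 1 retina left out). Kcne3 and Kcne4 were at or under 10.3 normalized counts in every retina. The 4 Kcnip genes, which encode calcium-binding partners of Kcnd channels, did not pass. Kcnip3, the most abundant, differed by -0.21 (95% interval -0.47 to 0.05). Without TKO replicate 3 it was at -0.35 and past the test (adjusted p = 0.0246 from edgeR).

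**Figure D2:**
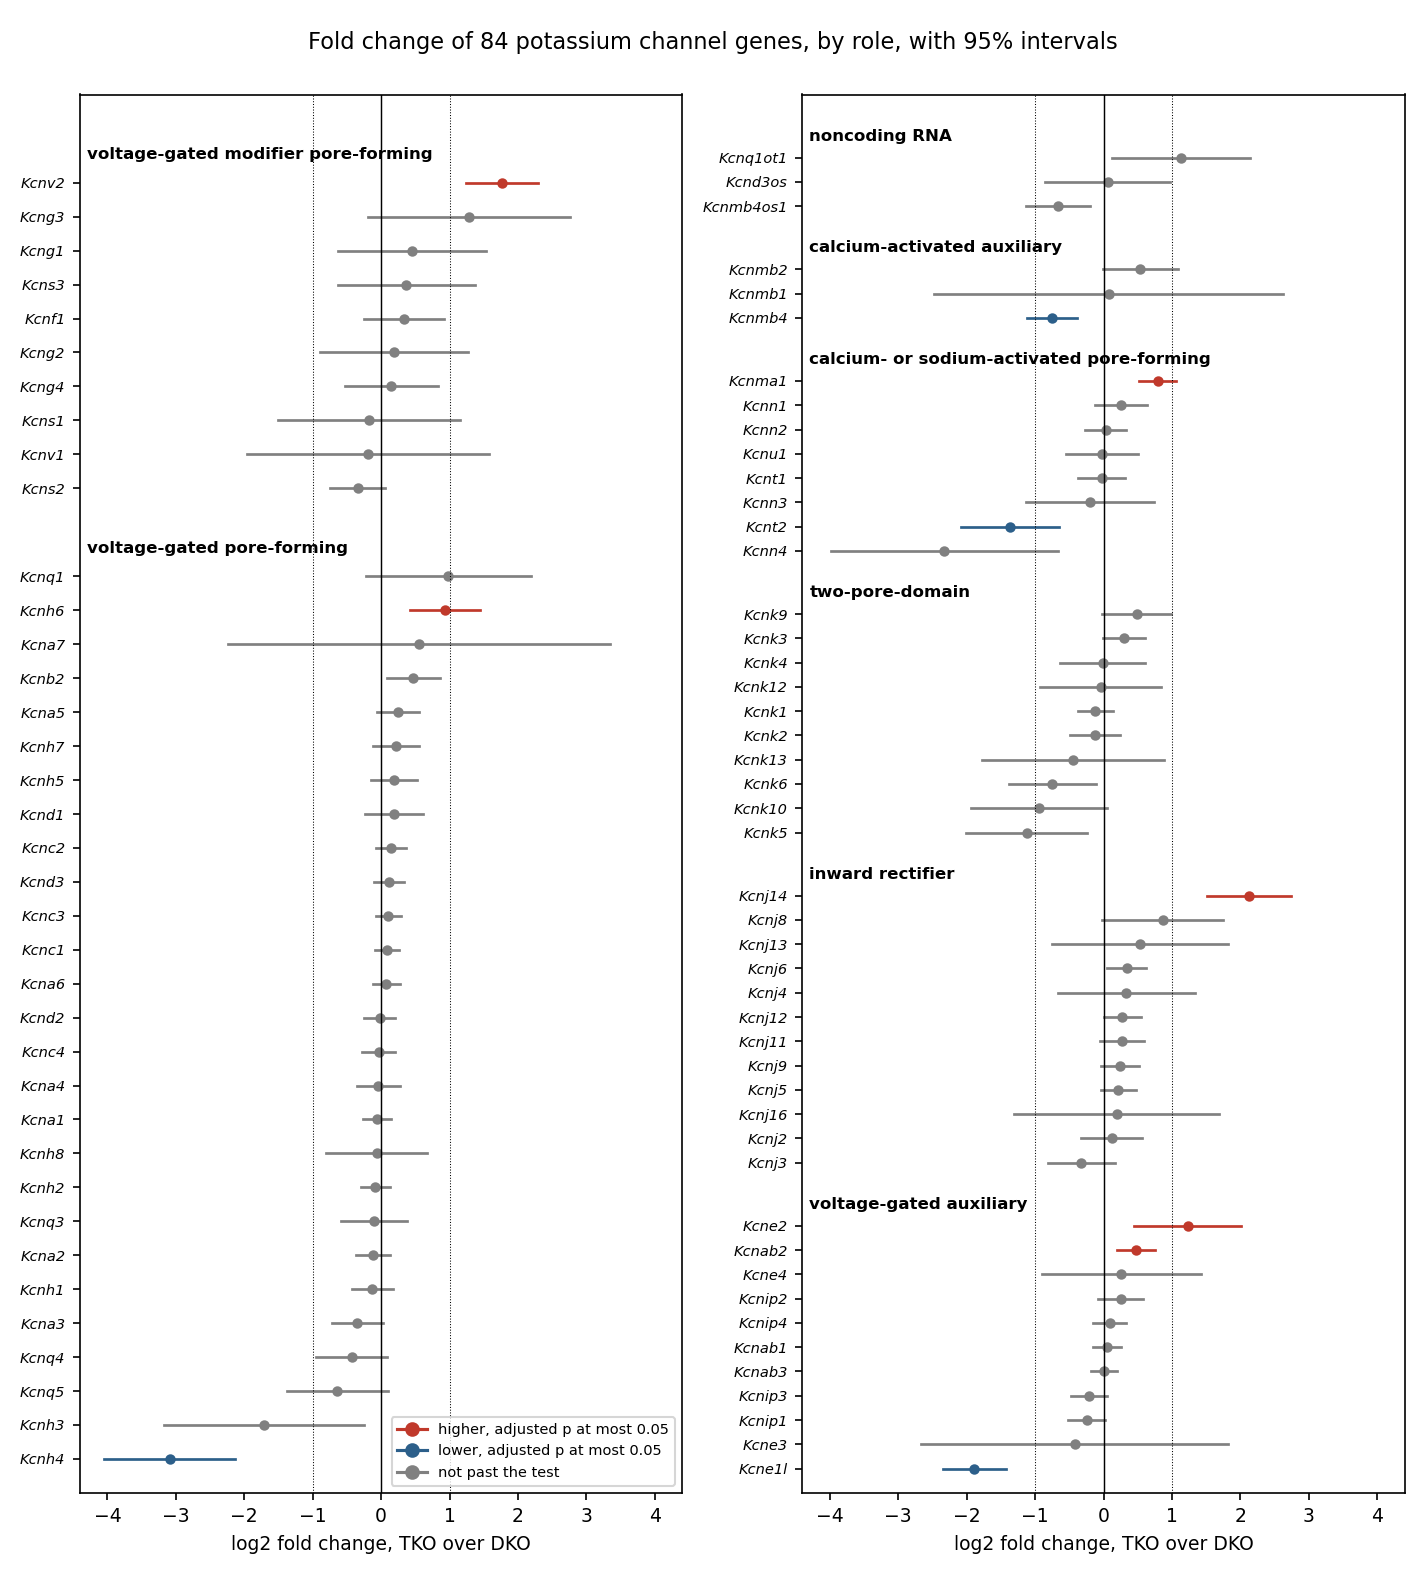
Log2 fold change (TKO over DKO, points) of 84 potassium channel genes with its 95% interval (bars, not adjusted for the number of genes), grouped by role, with genes past the test in red (higher) or blue (lower) and dotted lines at 2-fold. Most voltage-gated pore genes lie near 0 with narrow intervals, while Kcnj14 and Kcnv2 lie at 2.12 and 1.76 and Kcnh4 and Kcne1l at -3.09 and -1.89.

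Inward rectifiers pass potassium more readily into the cell than out of it and hold the membrane near its resting potential. Of 12 Kcnj genes 1 was higher and none was lower. Kcnj14 had 5876, 5320 and 3383 normalized counts in TKO retinae and 861, 946 and 1539 in DKO retinae. The lowest TKO retina held more than the highest DKO retina, and the log2 fold change of 2.12 was the highest of all 86 genes (SE 0.267, adjusted p = 0.00623 from edgeR, past the test in all 6 fits with 1 retina left out). The fitted change was above 0 for 11 of the 12 genes, with a median of 0.27, and for 10 of 12, with a median of 0.11, when libraries were scaled by total counts alone, where the median of all genes was -0.17. Of the 86 potassium channel genes, 48 were above 0 in the first case and 35 in the second.

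The other Kcnj genes of known retinal, RPE or vessel expression did not pass. Kcnj2, a classical strong rectifier, differed by 0.12 (95% interval -0.33 to 0.56). Kcnj13, an RPE rectifier, had 20.6, 66.3 and 25.8 normalized counts in TKO and 10.4, 27.1 and 40.6 in DKO retinae. Its highest value was in TKO replicate 2, which also held the most summed RPE marker counts (189 CPM) and lens marker counts (243), and its log2 fold change of 0.53 (-0.76 to 1.82) was -0.17 without that retina. The RPE marker part of this value was not tested. Of the 1270 exon bases of Kcnj13, 623 are shared with Gigyf2 on the opposite strand. The strand setting of the counting is not given, so reads in these bases cannot be told apart. Kcnj8, the pore of the ATP-sensitive channel of pericytes, had 53.9, 46.3 and 52.8 against 16.9, 20.1 and 46.6, where DKO replicate 3 was near the TKO values. The log2 fold change was 0.86 (-0.02 to 1.74), and without DKO replicate 3 it was 1.45 and past the test (adjusted p = 0.0135 from edgeR). The summed level of the 6 pericyte markers was 61.6 to 81.7 against 52.5 to 70.3 CPM, and its part in the value was not tested. Kcnj10, the Muller glia rectifier that the choice of genes left out, had 1755, 1510 and 1566 against 1270, 1059 and 1197 normalized counts and was higher (log2 fold change 0.45, adjusted p = 0.0176 from edgeR).

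The two-pore-domain genes, which carry the background leak, gave no call among 10, with 2 fitted above and 8 below 0. Kcnk1, the most abundant, differed by -0.12 (95% interval -0.38 to 0.14). Kcnk5, an acid-sensitive leak channel, had 8.03, 8.42 and 18.4 normalized counts in TKO and 22.6, 25.4 and 27.6 in DKO retinae. It lay lower in every TKO retina and did not pass (log2 fold change -1.13, adjusted p = 0.0808 from edgeR). Without TKO replicate 3 it was past the test (adjusted p = 0.0209 from edgeR), as it was without replicate 3 of either group (0.0317). Kcnk5 was picked out after its values were seen.

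Of 8 genes for calcium- or sodium-activated pores 1 was higher and 1 was lower. Kcnma1, the pore of the large-conductance BK channel, had 2260, 1786 and 1771 normalized counts in TKO and 1180, 998 and 1186 in DKO retinae. Every TKO retina was above every DKO retina, with a log2 fold change of 0.79 (SE 0.119, adjusted p = 0.00752 from edgeR, past the test in all 6 fits with 1 retina left out). Kcnmb4, the neuronal beta subunit that slows BK gating, differed in the opposite direction, with 159, 248 and 206 against 331, 357 and 349. Its TKO values were all below its DKO values, with a log2 fold change of -0.75 (SE 0.161, adjusted p = 0.0181 from edgeR). Without DKO replicate 1 or 2 the adjusted p was 0.0576 or 0.0768. Of the 3324 exon bases of Kcnmb4, 355 are shared with the noncoding Kcnmb4os1 and 693 with the noncoding Kcnmb4os2, both on the opposite strand. The strand setting of the counting is not given in the sources used here, so reads in the shared bases cannot be told apart. Kcnmb4os1 had 71.1, 120 and 108 against 148, 169 and 158, below in every TKO retina as well, and did not pass (log2 fold change -0.66, adjusted p = 0.0596 from edgeR), though it did with DESeq2 (adjusted p = 0.0329) and with total counts alone as the scaling (0.0343 from edgeR). Kcnmb2, another beta subunit, stood at 37.8, 49.5 and 54.0 against 30.1, 32.4 and 34.5 (0.54, adjusted p = 0.157 from edgeR).

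Kcnt2, a sodium-activated channel, had 11.5, 9.47 and 17.2 normalized counts in TKO and 33.9, 33.3 and 31.1 in DKO retinae. The groups did not overlap at these low counts, with a log2 fold change of -1.37 (SE 0.313, adjusted p = 0.0228 from edgeR). The adjusted p was 0.0725 to 0.0899 when replicate 1 or 2 of either group was left out. Its relative Kcnt1 had 632, 495 and 673 against 729, 538 and 569 (-0.03, 95% interval -0.38 to 0.32). Kcnn2, of the small-conductance channels, differed by 0.03 (-0.27 to 0.33), and Kcnu1, a pH-sensitive relative of Kcnma1, by -0.03 (-0.55 to 0.50). Kcnn4, the intermediate-conductance channel of blood cells and microglia, was counted 2, 0 and 3 times in TKO retinae and 11, 8 and 15 times in DKO retinae. It was lower in every TKO retina, at a level 5.33-fold higher in DKO retinae (95% counting interval 2.08 to 17.5), and did not pass (adjusted p = 0.0617 from edgeR). It passed with total counts alone as the scaling and without TKO replicate 3 (adjusted p from edgeR 0.0450 and 0.0461). Of 7 microglia markers 5 were lower as well, while P2ry12 (log2 fold change 0.04) and Tmem119 (-0.35) did not pass. The part of the microglia markers was not tested. The noncoding Kcnq1ot1 had 398, 120 and 124 against 107.3, 89.3 and 96.7 normalized counts, so that TKO replicate 1 alone stood well above the rest (adjusted p = 0.117 from edgeR). It passed with DESeq2 (adjusted p = 0.0289) and without replicate 3 of either group (0.0397 from edgeR).

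Per kilobase of exon, which allows levels of different genes to be compared, Kcnab2 led in DKO retinae with 650 ± 96.1 normalized counts per kb (SD, n = 3), followed by Kcnab3 with 512 ± 12.3 and Kcna5 with 479 ± 90.6. Kcnab2 was above Kcnab3 in every DKO retina, while Kcnab3 and Kcnip3 (477 ± 17.1) lay within the spread of Kcna5. In TKO retinae Kcnj14 led with 1789 ± 482 per kb, where it was the seventh in DKO retinae with 410 ± 136. Kcnv2 was the third with 1010 ± 251, where it was the tenth in DKO retinae with 297 ± 81.1, and Kcnab2 came next with 899.9 ± 56.2. The values of Kcnv2 and Kcnab2 in TKO retinae overlapped. Kcne2 moved from place 26 in DKO to 10 in TKO retinae and Kcne1l from 20 to 41.

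**Figure D3:**
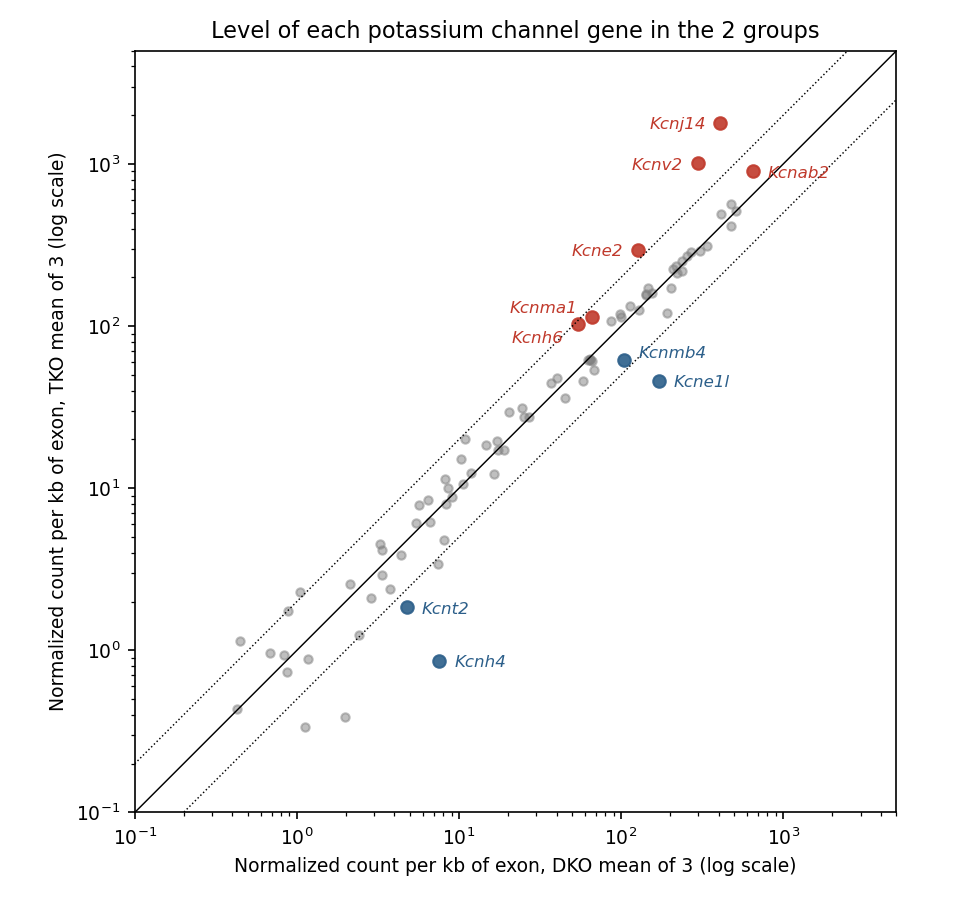
Mean normalized count per kb of exon of 84 potassium channel genes in DKO (horizontal) and TKO retinae (vertical), n = 3 each, on log axes, with the line of equal level, dotted lines at 2-fold and genes past the test in colour. Kcnj14, Kcnv2 and Kcne2 lie above the upper dotted line, and Kcne1l, Kcnt2 and Kcnh4 lie below the lower one.

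Kcnv2 and Kcnj14 together made up 17.2, 15.7 and 11.5% of all potassium channel gene counts in TKO retinae and 4.85, 4.88 and 6.90% in DKO retinae. The groups did not overlap (exact permutation test, two-sided, p = 0.10, the smallest that 3 against 3 allows). Both genes were already called higher in these same retinae, so their share restates those calls and is no separate support. The share of Kcnab2, by contrast, was 7.51, 7.42 and 7.53% against 6.84, 8.22 and 8.04%, with the TKO values inside the range of the DKO values. For every 1000 counts on the 8 rod markers, those on Kcnv2 numbered 9.11, 9.53 and 11.2 in the TKO retinae against 11.2, 11.0 and 9.23. Relative to rod markers the groups thus overlapped for Kcnv2 (exact permutation p = 0.80). Kcnj14 had 8.63, 9.15 and 10.2 against 7.41, 8.33 and 7.12, above the DKO values in all 3 TKO retinae (exact permutation p = 0.10). For Kcnma1, Kcnab2, Kcnh6 and Kcne2 the values relative to rod markers were lower in every TKO retina than in any DKO retina. Their log2 fold changes (0.79, 0.47, 0.93 and 1.23) were below the rod marker median of 1.82. The lower ratios thus follow from the larger rise of the rod markers, and the level per rod was not tested. The count of Kcnj14 over that of Kcnv2 was 0.948, 0.960 and 0.908 in TKO and 0.659, 0.755 and 0.771 in DKO retinae, higher in all 3 TKO retinae (exact permutation p = 0.10). Of the 13 quantities compared in this way none can go below 0.10, so none could pass a threshold of 0.05.

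**Figure D4:**
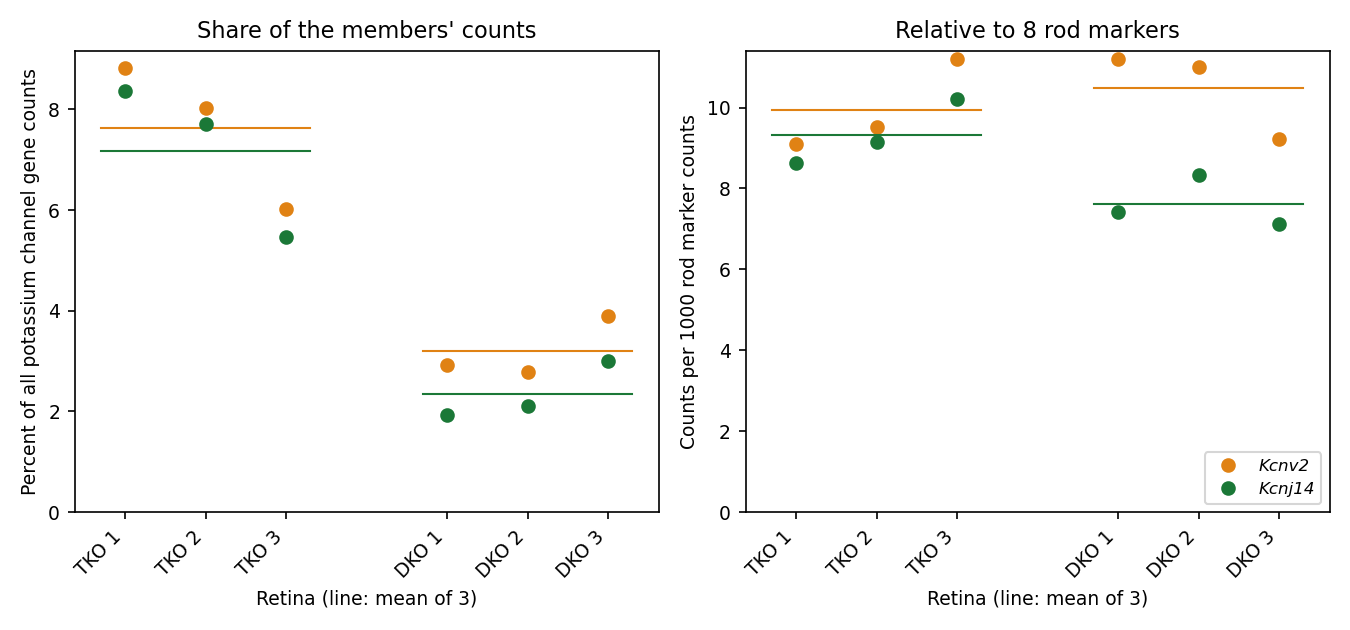
Share of all potassium channel gene counts (left, percent) and counts per 1000 rod marker counts (right) of Kcnv2 and Kcnj14 in each retina, with lines at the mean of 3. Both genes take a larger share in TKO retinae, and relative to rod markers the groups overlap for Kcnv2 and lie apart for Kcnj14.

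Of 35 tested genes that work beside potassium channels, 6 were higher and 2 were lower. These 8 are 22.9% of the 35, beside 16.6% of all genes tested. The groups did not overlap for 40.0% of the 35, beside 38.6% of all genes. None of 9 auxiliary subunits with other names passed, among them the Kcnd partners Dpp6 and Dpp10 and the membrane protein Amigo1 (log2 fold change 0.01). Of 8 genes that anchor channels, Dlg1 and Dlg4, scaffold proteins that bind Kcna and Kcnj channels, were higher, at 1777, 1661 and 1652 against 1292, 1218 and 1416 normalized counts for Dlg1 (0.37, adjusted p = 0.0202 from edgeR) and a log2 fold change of 0.52 for Dlg4 (adjusted p = 0.0306 from edgeR). Of 9 sodium-potassium pump genes 2 were higher and 1 was lower, with the regulator Fxyd1 among the higher ones (0.62, adjusted p = 0.0452 from edgeR). Of 9 potassium-coupled transporters 2 were higher and 1 was lower. Slc24a1, the sodium-calcium-potassium exchanger of rod outer segments, was higher, at 19836, 17205 and 10363 against 3717, 3412 and 6172 (1.83, adjusted p = 0.00821 from edgeR). The potassium-chloride cotransporter Slc12a7 was lower, at 225, 266 and 265.1 against 415, 348 and 406 (-0.63, adjusted p = 0.0134 from edgeR). The groups did not overlap for any of these 5 named genes past the test. With total counts alone as the scaling, Dlg1, Dlg4 and Fxyd1 were not past the test (adjusted p from edgeR 0.0577 to 0.1002), nor was Fxyd1 with upper-quartile factors (0.0522). Slc24a1 alone of the 5 stayed past the test in all 6 fits with 1 retina left out, and the highest adjusted p from edgeR over these fits was 0.155, for Fxyd1. Slc12a7 was not past the test without TKO replicate 2 or DKO replicate 1, Fxyd1 without TKO replicate 2 or 3 or DKO replicate 1 or 2, and Dlg1 and Dlg4 without replicate 1 or 2 of either group.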

How the data were processed

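RNA-seq counts of 6 retinae, 3 of each genotype (TKO and DKO), were analysed, grouped by the sample labels. The authors deposited raw counts of paired reads per gene, 1 column per retina, without normalization. The paper's methods name STAR and HTSeq on GRCm38 (up to 10 mismatches per pair and 3 alignments per read), and the submitters' processing notes name TopHat2, featureCounts and DESeq2 on mm10 and GRCm38, so the route of these counts is not settled. Reads could align more than once, so values of near-identical gene copies are uncertain. The kit keeps strand, but the strand setting of the counting is not given in the sources used here. Of the 86 genes, 30 share exon bases with another annotated gene.

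The members, gene lists and tests were chosen with earlier results of these data known. Genes with a sum under 10 were removed, and 16904 were tested with edgeR 4.0.16 in R 4.3.3 (TMM, quasi-likelihood F test, Benjamini-Hochberg adjustment over all of them). The minimum fold change and mean follow the paper's criteria. DESeq2 1.42.0 was an alternative. Normalized counts were scaled to the mean effective (TMM) library size. Standard errors were obtained from the log2 fold change and F, and 95% intervals are per gene. Exon lengths, positions and coding stretches come from GENCODE M21. The fit was tested on simulated data. Library totals were 10343907 to 14203098, and replicates differed by more than counting noise (chi-square per degree of freedom 8.61 to 25.3). Counting intervals cover counting error only.

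Named were Hells, Rb1, Rbl1, genes past the test and the gene of each subfamily with the highest mean normalized count. Genes of known retinal, RPE or vessel expression and partner genes past the test were named as well. A few were picked out after their values were seen: Kcnh3, Kcnk5, Kcnn4, Kcnmb2, Kcnmb4os1, Kcnq1ot1, the other beta and Kcne subunits, Kcnj10, Dpp6, Dpp10, Amigo1 and the per-kb leaders. Some genes that this rule names are not reported here, in the text or the plots. Alternatives were DESeq2, other scalings and filters, robust dispersion, a replicate block, each retina left out, and stricter thresholds.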

Additional observations from a re-analysis of the deposited data

How the results depend on the processing

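The counts of potassium channel genes past the test (7 higher, 4 lower) stayed within 1.5-fold under DESeq2 (8 and 5, with 11 of its 13 calls shared with edgeR), other size factors, the other filters and robust dispersion estimates, with these exceptions. With at least 10 counts in every library, which left 67 of the genes, 2 were lower, and 1 by all 3 criteria. With an adjusted p of at most 0.01, 4 were higher and 2 lower, and 1 and 0 of the partner genes (6 and 2). Without a minimum fold change, 7 were differentially expressed and higher. With 1 retina left out, 4 to 8 genes were higher and 2 to 8 lower, 3 to 5 and 2 to 4 by all 3 criteria, and 1 to 8 and 0 to 4 partner genes. Without replicate 3 of either group, added after seeing the data, 12 were higher, 9 lower, 7 differentially expressed and higher, and 10 and 5 partner genes passed. The labels do not say that retinae of the same replicate number belong together. Same-number correlations of deviations were 0.05, -0.05 and -0.16, beside -0.146 to 0.165 for different numbers. With 3 retinae in each group these values cannot exclude a shared batch. With the replicate numbers as a block 1 gene was higher and 0 lower, and 0 and 0 by all 3 criteria. In that fit 0 and 0 partner genes passed, and 106 of all genes.

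The median log2 fold change of the genes (0.0751) was 0.0349 to 0.139 with 1 retina left out and -0.0777 with total counts alone, where the median of all genes was -0.17. That scaling left 1 partner gene higher and 5 lower. It turned the sign of genes that did not pass: Kcnc1 (-0.0679), Kcnc2 (-0.0143), Kcnd3 (-0.0396), Kcng4 (-0.0013), Kcnj2 (-0.0473) and Kcnn2 (-0.13). Signs also turned for Kcnn2 with upper-quartile factors (-0.0042) and without replicate 3 of either group (-0.0232), and with 1 retina left out for Kcng4 (-0.0565 to 0.64), Kcnj13 (-0.17 to 1.00), Kcnn2 (-0.04 to 0.11), Kcnt1 (-0.12 to 0.11) and Kcnu1 (-0.15 to 0.14). The cause of these shifts was not tested. Genes under 10 mean counts (13 of 86) have wide intervals, and depth limits what can be said of them.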
